A study of Rattus norvegicus with 4 samples.

Results

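The genes described here are 10 parts of the NF-kappaB system: the subunits Rela, Nfkb1 and Nfkb2, the inhibitors Nfkbia, Nfkbib and Nfkbie, the nuclear regulator Nfkbiz, the feedback enzymes Tnfaip3 and Zc3h12a, and the induced surface glycoprotein Cd83. They were taken by gene symbol from the annotation of a rat Affymetrix array. A probe set (a group of array probes for 1 transcript) was found for 9 of the 10 genes, among 14217 genes with a named probe set. Nfkbie has none in the annotation used and was not analysed here. Of the 9 genes, 8 had 1 probe set and Nfkbiz had 2, of which the one with the higher mean over the 4 arrays was used.

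Kidneys came from male Wistar rats of 300 to 480 g, in a model of donation after cardiac death. All kidneys, those of the control group included, lay for 29 min in the dead animal (primary warm ischaemia), were flushed, and then spent 3 h on a perfusion machine that pumped cold University of Wisconsin (UW) organ preservation fluid through them. The cold group ended there. The warm group went on to 30 min of perfusion with a warm, oxygenated modified Krebs-Henseleit buffer, which simulates reperfusion. The heparin group and the PPS group were handled like the warm group, with 10 IU/ml of low molecular weight heparin or of PPS (given in the labels by this abbreviation only) in both the cold and the warm fluid. Each group is 1 array of RNA pooled in equal amounts from 3 kidneys, so no difference between 2 arrays below has a spread between replicates to be set against. No group of fresh kidneys was analysed here.

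NF-kappaB is a family of transcription factor dimers held in the cytoplasm by IkappaB proteins. Signals from cytokine and Toll-like receptors activate the IkappaB kinase complex, IkappaB is degraded, and the freed dimers enter the nucleus, bind kappaB sites in DNA and switch on chemokine, adhesion and survival genes. Among the genes they switch on are their own inhibitors, so that the pathway shuts itself off; in kidney, ischaemia and reperfusion are known to activate it in tubule cells, endothelium and resident leukocytes.

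The promoter sequences of 5 members are printed because they show that kappaB-type sequences lie next to genes whose levels differed widely between arrays and next to a subunit gene whose levels stayed within 2-fold, while 1 gene with widely differing levels has none. They are the 250 bases before the gene start in RefSeq (assembly GRCr8; the array files name no build), read in the direction of the gene, and capitals mark matches on either strand to the 10-base kappaB consensus. The Nfkbia stretch is chr6:78597073-78597322 on the minus strand, that of Nfkbiz chr11:58251471-58251720 on the plus strand, that of Tnfaip3 chr1:15543980-15544229 on the minus strand, that of Nfkb2 chr1:255108124-255108373 on the plus strand and that of Zc3h12a chr5:142669986-142670235 on the minus strand.
Nfkbia: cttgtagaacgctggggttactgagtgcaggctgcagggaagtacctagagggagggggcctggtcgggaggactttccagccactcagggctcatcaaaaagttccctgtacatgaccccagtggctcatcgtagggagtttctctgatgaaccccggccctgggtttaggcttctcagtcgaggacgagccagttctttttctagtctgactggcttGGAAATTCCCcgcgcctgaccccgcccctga
Nfkbiz: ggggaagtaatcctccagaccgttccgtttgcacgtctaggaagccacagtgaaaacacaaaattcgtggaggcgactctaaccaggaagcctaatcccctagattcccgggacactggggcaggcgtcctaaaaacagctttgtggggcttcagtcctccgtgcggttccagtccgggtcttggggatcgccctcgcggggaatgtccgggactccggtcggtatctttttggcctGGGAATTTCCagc
Tnfaip3: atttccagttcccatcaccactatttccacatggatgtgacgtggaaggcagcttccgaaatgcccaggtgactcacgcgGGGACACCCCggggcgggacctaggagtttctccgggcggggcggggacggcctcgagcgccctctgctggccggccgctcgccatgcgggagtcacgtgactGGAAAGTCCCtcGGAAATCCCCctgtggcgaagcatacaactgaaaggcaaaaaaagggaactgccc
Nfkb2: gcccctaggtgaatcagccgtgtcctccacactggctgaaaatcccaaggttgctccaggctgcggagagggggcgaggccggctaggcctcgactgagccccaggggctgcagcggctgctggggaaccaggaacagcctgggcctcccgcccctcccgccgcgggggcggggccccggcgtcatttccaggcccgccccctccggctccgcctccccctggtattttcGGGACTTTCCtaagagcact
Zc3h12a: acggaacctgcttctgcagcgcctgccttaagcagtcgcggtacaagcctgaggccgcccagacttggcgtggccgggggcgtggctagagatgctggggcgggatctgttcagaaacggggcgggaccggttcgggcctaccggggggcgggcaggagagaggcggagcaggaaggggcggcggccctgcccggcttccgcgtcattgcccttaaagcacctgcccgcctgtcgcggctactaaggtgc

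In the full windows of 300 bases, which run from 250 bases before to 50 bases after the gene start, 7 of the 10 member genes held at least 1 match to the kappaB consensus, against 4.18% of 33469 RefSeq promoters. Restricted to the letters GGGANTTTCC on either strand, all of whose matches are also matches to the consensus, 5 of 10 members held one (Nfkb1, Nfkb2, Nfkbia, Nfkbiz and Tnfaip3), against 0.362% of all promoters. Tnfaip3 had 3 consensus matches, the 2 nearer ones lying 67 to 58 and 55 to 46 bases before the start. The match of Nfkbia lay 31 to 22 bases before the start and that of Nfkbiz 13 to 4 bases before it. The subunit genes Nfkb2 (20 to 11 bases before the start) and Nfkb1 (gggaatttcc, just after the start) carried such letters too. Matches were thus found both in genes that differed by 2-fold or more between arrays as deposited and in genes that did not. Zc3h12a, Rela and Nfkbib had no match in this window, which says only that these letters are not there. The AP-1 letters TGANTCA, which overlap none of the kappaB matches, occurred in 3 of 10 members (Nfkb2, Nfkbie and Tnfaip3) and in 7.33% of all promoters.

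**Figure D1:**
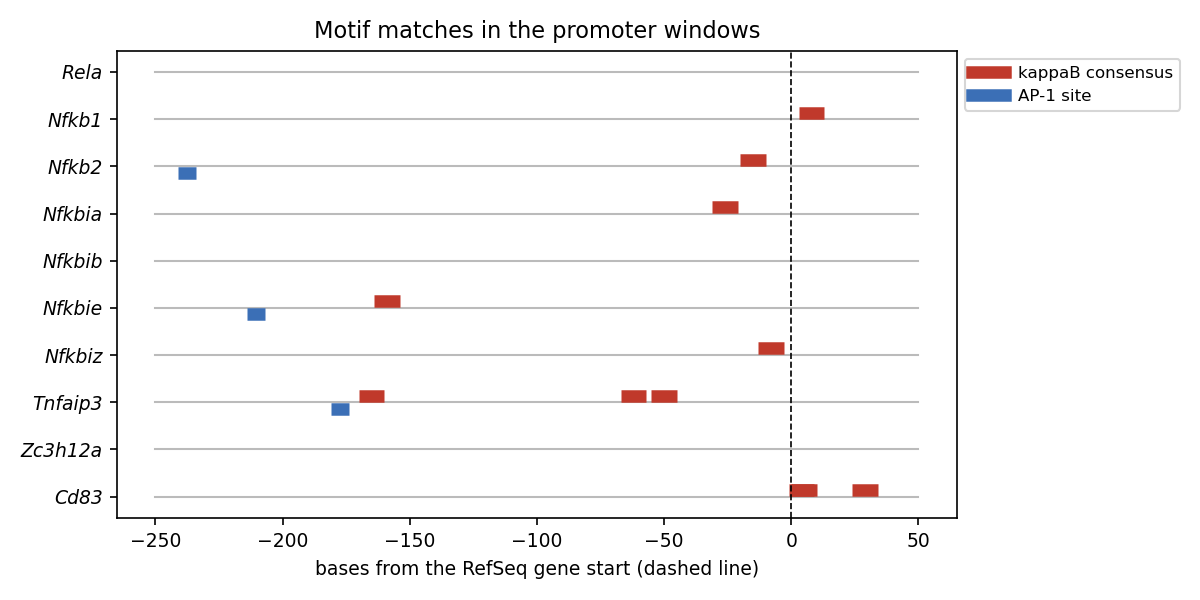
Positions of kappaB consensus matches (red) and AP-1 matches (blue) in the promoter windows of the 10 member genes, in bases from the RefSeq gene start (dashed line). Tnfaip3 holds 3 kappaB matches; Rela, Nfkbib and Zc3h12a hold none.

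Levels are log2 expression values as the authors deposited them, where a step of 1 is a 2-fold change. Values were raised to a floor of 4.51, the 50th percentile of all values, a chosen limit on low values. All 9 measured members lay above the floor on all 4 arrays. Levels of different genes are not compared, because their probes differ. A difference of 2-fold or more was counted as higher or lower, and the share of all 9393 genes above the floor that pass this limit is given beside each count as the background.

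The arrays themselves bear on these values as follows. The 24 poly-A control probe sets, for bacterial transcripts added to the RNA before labelling, were all higher on each warm-perfused array than on the cold array, by medians of 1.25 (warm), 1.28 (heparin) and 1.10 (PPS), and scaling to them moves the all-gene median of warm minus cold from -0.0032 to -1.27. Among the 3 warm-perfused arrays these medians differed by 0.18 or less. The 18 hybridisation control probe sets, for transcripts added after labelling, were further apart there. Set against the PPS array, the heparin array had 0 of the 18 higher (median -0.47). Set against the warm array, it also had 0 of the 18 higher (median -0.28). The PPS array had all 18 higher than the warm array (median 0.17). Over the cold array the medians were 0.44 (warm), 0.15 (heparin) and 0.66 (PPS). The 3' probe set of beta-actin exceeded the 5' one by between 2.79 (cold) and 3.39 (heparin), a measure of RNA quality. All 6 proximal tubule markers and all 4 collecting duct markers were above the floor on these kidney arrays. Markers of other kidney cells differed between these arrays too. All 5 fibroblast and pericyte markers were lower by 2-fold or more on the warm array than on the cold array (median -1.31), with summed linear levels of 4487 (cold), 1910 (warm), 2304 (heparin) and 3417 (PPS). Of 3 podocyte markers above the floor 2 were higher by 2-fold or more in warm minus cold (median 1.01), with sums of 1965, 3279, 2547 and 3101 in the same order. The endothelial markers, 6 above the floor, had a median of 0.25, and the 6 proximal tubule markers one of -0.33. The part of cell markers, RNA quality and the control transcripts in the results was not tested.

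Warm perfusion against cold perfusion asked what reperfusion adds. As deposited, the inhibitors and feedback genes other than Nfkbib were higher on the warm array. The subunits and Nfkbib, also as deposited, were within 2-fold of their cold level. Of 9 members, 5 were higher by 2-fold or more, where 2.48% of all genes were, and 0 were lower, where 1.16% were. The median log2 difference was 2.74 for the 6 inhibitors and feedback genes, 0.12 for the 3 subunits and -0.0032 for all genes. The gap of 2.62 between the first 2 medians stays the same when an array is shifted as a whole. The medians themselves became 1.47 and -1.15 when scaled to the poly-A controls. With that scaling Rela (-1.15), Nfkb1 (-1.61) and Nfkbib (-1.40) were lower by 2-fold or more, where 7689 of all 9690 genes were.

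Among the subunits, Rela, which carries the main transactivation domain of the classical dimer, had log2 levels of 8.40 (cold), 8.51 (warm), 8.12 (heparin) and 8.41 (PPS). Its 4 values span 0.39, lowest with heparin. Nfkb1, which encodes a precursor that is processed to the partner of Rela and whose uncleaved form acts as an inhibitor, had levels of 9.46 (cold), 9.12 (warm), 9.22 (heparin) and 9.27 (PPS). Its highest value was on the cold array and its lowest on the warm array, opposite to the feedback genes, by a log2 difference of -0.34. Nfkb2, the precursor used in the noncanonical branch of the pathway, had levels of 7.13 (cold), 7.56 (warm), 7.21 (heparin) and 6.86 (PPS). It was the subunit that varied most, over 0.69, with the warm array highest and the PPS array lowest. In warm minus cold, Rela and Nfkb2 were positive as deposited (0.12 and 0.42) and turned negative after scaling to the hybridisation controls, transcripts added after labelling (-0.34 and -0.032), or to the poly-A controls (-1.15 and -0.85).

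The classical inhibitors did not move together. Nfkbia, an IkappaB whose gene is a rapid target of NF-kappaB itself, had log2 levels of 9.69 (cold), 11.55 (warm), 10.66 (heparin) and 10.07 (PPS). The warm array was 3.62-fold above the cold array, rank 79 from the top among 9393 genes. Nfkbib, an IkappaB that is known to be degraded and replaced more slowly, had levels of 8.77 (cold), 8.63 (warm), 8.44 (heparin) and 8.49 (PPS). Its values span 0.33, with the cold array highest, and its warm minus cold difference of -0.14 was at the 29.5th percentile of all genes.

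Nfkbiz, a nuclear IkappaB family member that works as a coactivator of secondary response genes, had the largest warm minus cold difference of the members by the probe set rule used. It had log2 levels of 6.36 (cold), 11.65 (warm), 10.20 (heparin) and 9.48 (PPS). All 3 warm-perfused arrays were above the cold array by at least 3.12, and the 39.1-fold difference of warm over cold ranked 8 among 9393 genes. A second Nfkbiz probe set was at the lowest value of the data, 2.11, on all 4 arrays; averaging both probe sets lowers the warm minus cold difference from 5.29 to 2.37, below those of Zc3h12a (3.24), Tnfaip3 (2.76) and Cd83 (2.72), and takes the heparin minus warm difference from -1.44 to -0.72, inside the 2-fold limit.

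The feedback enzymes followed the same order of arrays. Tnfaip3, a ubiquitin-editing enzyme that stops signalling upstream of the IkappaB kinase, had log2 levels of 6.66 (cold), 9.42 (warm), 8.48 (heparin) and 8.02 (PPS). The warm array was 6.78-fold above the cold array. Zc3h12a, an endoribonuclease that degrades cytokine messenger RNAs, had levels of 5.26 (cold), 8.50 (warm), 7.09 (heparin) and 6.62 (PPS). Its cold value lay near the floor, so the 9.42-fold difference of warm over cold is uncertain in size, and scaling to the poly-A controls left a log2 difference of 1.97.

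Cd83, an immunoglobulin superfamily glycoprotein known from mature dendritic cells and activated lymphocytes, had log2 levels of 7.02 (cold), 9.74 (warm), 8.11 (heparin) and 8.06 (PPS). The warm array was 6.58-fold above the cold array, and the heparin and PPS arrays were nearly level with each other. In whole kidney, more cells of a type and more RNA per cell cannot be told apart. Of 7 dendritic and B cell markers 4 had a probe set and 1 was above the floor, Itgax, at 6.91, 7.85, 7.64 and 7.85 on the cold, warm, heparin and PPS arrays; Flt3, Cd79b and Ms4a1 were below the floor on all 4. Of 14 leukocyte markers 6 were above the floor, with summed levels on the linear scale of 28472 (cold), 30634 (warm), 22800 (heparin) and 28268 (PPS). These sums are mostly Cd74 and Lyz2, at log2 levels of 13.0 or above, against 9.24 or less for the others. The median of the 6 log2 differences in warm minus cold was 0.16. The part of these markers in the Cd83 values was not tested.

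**Figure D2:**
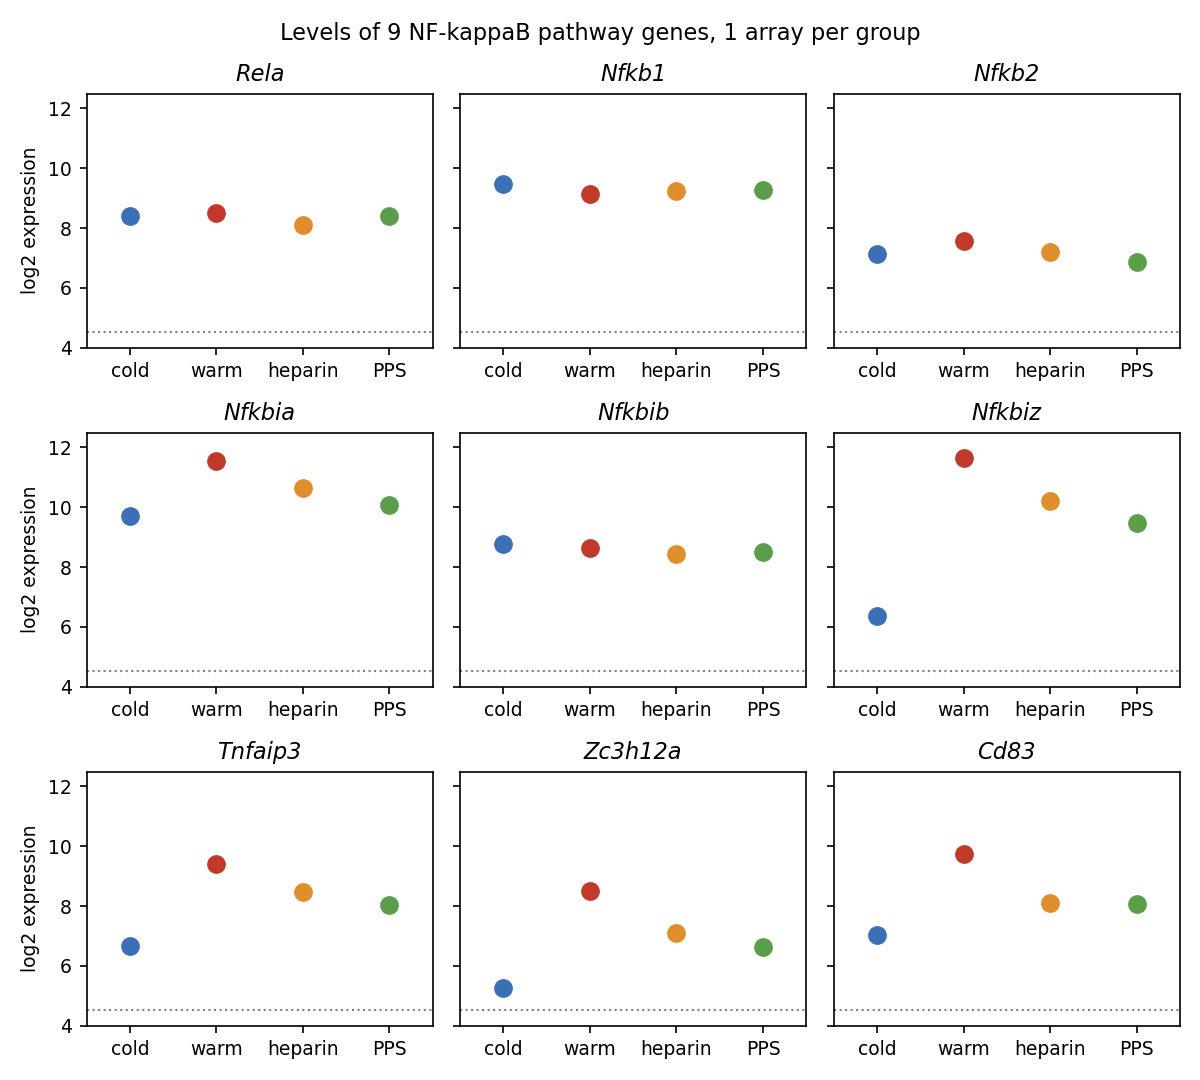
Log2 expression of the 9 measured members on the cold, warm, heparin and PPS arrays, 1 point per array; the dotted line is the floor at 4.51. Nfkbia, Nfkbiz, Tnfaip3, Zc3h12a and Cd83 run from warm over heparin and PPS down to cold, while Rela, Nfkb1 and Nfkbib span less than 0.4 each.

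The comparisons with heparin and with PPS asked what each supplement, tested for anti-inflammatory properties, changes in the perfused kidney. The 5 genes that were higher by 2-fold or more on the warm than on the cold array had lower levels on both supplemented arrays than on the warm one, as Rela, Nfkb2 and Nfkbib also had as deposited. With heparin, 3 of 9 members were lower by 2-fold or more, where 1.48% of all genes were, and 0 were higher, where 0.383% were. With PPS, 5 of 9 were lower, where 1.71% of all genes were, and 0 were higher, where 0.511% were. These comparisons share the warm array, which is also the array that was highest in warm minus cold, so the 3 comparisons are not independent of each other.

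On the heparin array, Cd83 was 3.08-fold, Nfkbiz 2.72-fold and Zc3h12a 2.65-fold below the warm array. Tnfaip3 and Nfkbia stayed just inside the 2-fold limit, at 1.91-fold and 1.86-fold lower; with poly-A scaling Tnfaip3 passed it (-1.02). The median of the 6 inhibitors and feedback genes was -1.17, that of the 3 subunits -0.34 and that of all genes 0. Rela (-0.39) and Nfkb2 (-0.34) were among the subunits with lower values, and Nfkb1 differed by 0.10. Nfkbib, at -0.19, turned to 0.088 after scaling to the hybridisation controls.

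On the PPS array, Nfkbiz was 4.49-fold below the warm array, the 27th lowest difference of 9393 genes. Zc3h12a was 3.69-fold, Cd83 3.21-fold, Nfkbia 2.79-fold and Tnfaip3 2.63-fold lower. The median of the 6 inhibitors and feedback genes was -1.58, that of the subunits -0.098 and that of all genes 0. Nfkb2 was 1.62-fold lower, the largest subunit difference of any comparison as deposited, while Nfkb1 differed by 0.14, or by -0.036 after scaling to the hybridisation controls.

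**Figure D3:**
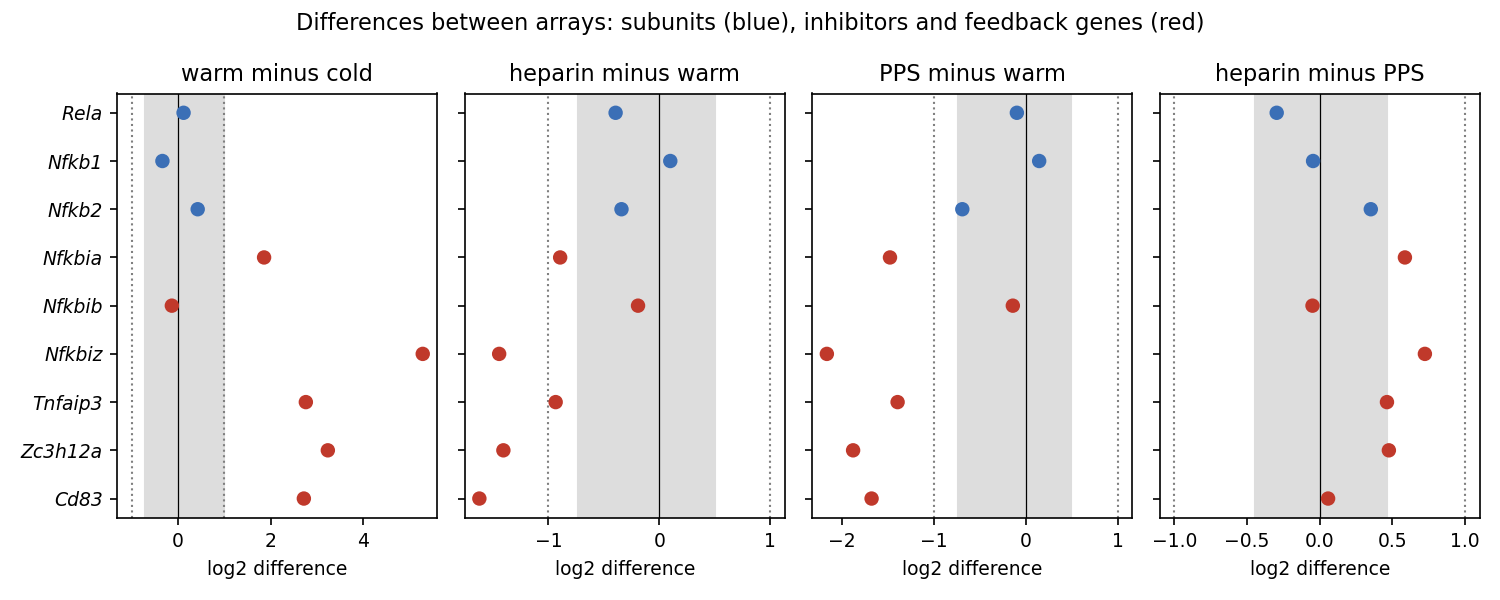
Log2 differences of the 9 members in 4 comparisons, subunits in blue and inhibitors and feedback genes in red; grey spans the middle 95% of 9393 genes and dotted lines mark 2-fold. In warm minus cold the feedback genes other than Nfkbib lie between 1.86 and 5.29 and the subunits between -0.34 and 0.42 (Rela and Nfkb2 turn negative after scaling to spiked-in controls).

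As deposited, all 5 genes stayed above their cold level on both supplemented arrays. Against the cold array, 4 members were higher by 2-fold or more with heparin (1.17% of all genes) and 4 with PPS (1.03% of all genes), and 0 were lower (0.916% and 0.788% of all genes); in both cases the 4 were Nfkbiz, Tnfaip3, Zc3h12a and Cd83. With poly-A scaling Nfkbiz was the 1 member higher by 2-fold or more on either array. Tnfaip3 was then at 0.47 (heparin) and 0.18 (PPS) and Zc3h12a at 0.47 and 0.17. The other 4 members, Rela, Nfkb1, Nfkb2 and Nfkbib, were lower by 2-fold or more on both arrays with this scaling, apart from Nfkbia and Cd83. Of all 9690 genes, 8358 (heparin) and 7428 (PPS) were lower there. Scaled to the hybridisation controls, Cd83 was inside the limit with heparin (0.92), and with PPS Nfkbiz alone passed it, with Tnfaip3 at 0.73, Zc3h12a at 0.72 and Cd83 at 0.40. Nfkbiz was 14.4-fold above cold with heparin and 8.70-fold with PPS, or by log2 differences of 1.64 and 1.28 when both its probe sets were averaged. Expressed as a share of the warm minus cold log2 difference, the heparin minus cold difference was 72.7% for Nfkbiz, 66.1% for Tnfaip3, 56.5% for Zc3h12a, 51.8% for Nfkbia and 40.3% for Cd83. For PPS the shares were 59.0%, 49.4%, 41.9%, 20.3% and 38.2% for the same genes. These shares depend on the scaling: with poly-A scaling they were 61.9% (heparin) and 48.3% (PPS) for Nfkbiz, 31.4% and 12.3% for Tnfaip3 and 24.0% and 8.88% for Zc3h12a, and below 0 for Nfkbia and Cd83. Scaled to the hybridisation controls, the PPS shares were 51.4% for Nfkbiz, 31.6% for Tnfaip3, 25.9% for Zc3h12a, 17.8% for Cd83 and below 0 for Nfkbia. As deposited, Nfkbia on the PPS array was the closest to its cold level, at 1.30-fold above it. With poly-A scaling, Nfkbia and Cd83 lay below cold on both supplemented arrays, with differences of -0.39 and -0.26 (heparin) and -0.80 and -0.14 (PPS), and scaled to the hybridisation controls Nfkbia lay below cold with PPS (-0.26).

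Heparin and PPS were compared directly at the same stated amount of 10 IU/ml and the same times. Whether that amount is an equal dose of both was not tested. As deposited, no member differed by 2-fold or more, where 0.192% of all genes were higher and 0.298% lower. Scaled to the hybridisation controls, Nfkbiz (1.18) and Nfkbia (1.05) were past the limit, where 142 of all 9478 genes were higher and 11 lower. Nfkbiz (1.65-fold), Zc3h12a (1.39-fold), Tnfaip3 (1.38-fold) and Nfkbia (a log2 difference of 0.59) were higher with heparin than with PPS, each above the 97.5th percentile of all genes, a log2 difference of 0.46. Cd83 differed by 0.057, and by -0.12 with poly-A scaling. The subunits went either way, with Nfkb2 higher by 0.35 and Rela lower by 0.30 on the heparin array, the latter turning to 0.16 after scaling to the hybridisation controls. With 1 array each there is no test of these differences, and their interval is unknown.

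As deposited, all 5 genes had the order warm, heparin, PPS, cold from highest to lowest. The share of all genes with this order was not counted, so it is not read as particular to these genes. The order held for 5 of 5 genes when arrays were centred on the median or quantile-normalised. Those settings move the values little, because the deposited arrays already have nearly the same distribution. After scaling to the hybridisation controls the order held for 4 of 5, and with poly-A scaling for 3 of 5. Dropping or lowering the floor could not change it, since these genes lay above the floor on all 4 arrays. Averaging probe sets could not either, since it acts on Nfkbiz only, whose second probe set was at 2.11 on all 4 arrays. The warm array was the highest for all 5 under each of these settings. These genes are the ones that were higher by 2-fold or more there than on the cold array. That choice fixes warm above cold as deposited and favours a top place of the warm array, so its place is a description.

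Genes with the most similar profile over the 4 arrays were sought among all 9393 genes, by Euclidean distance between log2 values centred on each gene's mean. The nearest to Nfkbiz were the orphan nuclear receptor genes Nr4a2 (distance 0.16) and Nr4a1 (0.33) and the immediate early transcription factor gene Egr1 (0.41). Nearest to Tnfaip3 were Adm, which encodes the vasodilator peptide adrenomedullin (0.13), Ptgs2, the inducible cyclooxygenase (0.18), and Hspb1, a small heat shock protein (0.24). For Nfkbia they were Ddit3 (0.26), Rhob (0.27) and Arrdc2 (0.28). With 4 arrays, such distances describe these pools only.

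The 3 warm-perfused arrays were also set against the cold array with limma, a contrast with 2 residual degrees of freedom, which contain any effect of the supplements besides chance and rest on the assumption that the lone cold array varies like the others. At an adjusted p under 0.05, limma called 0 of 9 members and 1 gene in all (0.0106% of 9393), Grhl1, named because the count was 1. At an unadjusted p under 0.05 there were 2 members, where 16.2% of all genes were. Nfkbiz had an estimate of 4.08 ± 1.03 (SE, limma, adjusted p = 0.26), higher on 3 of 3 warm-perfused arrays. Nfkb1 had an estimate of -0.26 ± 0.082 (SE, limma, adjusted p = 0.31), lower on 3 of 3. Tnfaip3 was estimated at 1.98 ± 0.66 and Zc3h12a at 2.14 ± 0.91 (SE, limma, adjusted p = 0.32 and 0.38), both also higher on 3 of 3 arrays. Smallest among the 5 was Nfkbia, at 1.07 ± 0.70 (SE, limma, adjusted p = 0.53). The SEs hold the differences among the 3 warm-perfused arrays. All 3 differences share the cold array, so 1 high or low cold value is enough to give 3 of 3, and the agreement in sign is a description.

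Other genes of the pathway came from 5 lists. The receptors and adaptors that feed signals into the pathway had 17 of 26 genes above the floor, with 0 past 2-fold in any of the 6 comparisons as deposited and a median of 0.056 in warm minus cold. Since 2.48% of all genes were higher and 1.16% lower there, a count of 0 in lists of this size is near the background and is read as no more than that. Cd14, the lipopolysaccharide co-receptor, was at 5.26 on the cold array and below the floor on the warm array (4.31). The other values ran from Irak2 (-0.58), which relays interleukin-1 receptor signals, to Ripk1 (0.53), a kinase of the tumour necrosis factor receptor complex. Of 17 kinases and ubiquitin ligases 14 were above the floor, again with 0 past the limit in any comparison as deposited and a median of -0.036 in warm minus cold; the IkappaB kinase genes Chuk and Ikbkb differed by -0.36 and -0.19. Of 16 other negative regulators 9 were above the floor, 0 passed the limit and the median was 0.060. Their values in warm minus cold ran from the deubiquitinase gene Cyld (-0.44) to N4bp1 (0.63). These counts depend on the scaling. With poly-A scaling many of these genes were lower by 2-fold or more in warm minus cold, where 7689 of all 9690 genes were. They were 11 of the 17 receptors and adaptors, 11 of the 14 kinases and ligases and 6 of the 9 negative regulators. Scaled to the hybridisation controls, 3 receptors and adaptors were lower, where 429 of all 9478 genes were.

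Of 4 other subunit and IkappaB family genes, Rel had no named probe set and Relb was below the floor on all 4 arrays. The remaining 2 passed the limit in warm minus cold. Bcl3, a nuclear IkappaB family coregulator, had log2 levels of 5.65 (cold), 6.72 (warm), 6.38 (heparin) and 6.77 (PPS), so it was as high with PPS as on the warm array, unlike the feedback genes. Nfkbid, another nuclear member, had levels of 4.35 (cold, below the floor), 5.89 (warm), 4.64 (heparin) and 4.64 (PPS), so that warm exceeded cold by at least 2.59-fold. With poly-A scaling 0 genes of this list were past the limit in warm minus cold, where 65 of all 9690 genes were higher and 7689 lower. Scaled to the hybridisation controls 1 was higher, where 116 of all 9478 genes were.

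Of 30 target genes 20 were above the floor. In warm minus cold 9 were higher by 2-fold or more (2.48% of all genes) and 0 lower (1.16%), with a median of 0.76. The largest were the chemokine genes Cxcl1 (at least 46.6-fold), Cxcl10 (29.7-fold) and Cxcl2 (at least 27.5-fold). The cold value of Cxcl10 (4.97) lay near the floor, so its fold difference is uncertain in size. With poly-A scaling 7 of 19 target genes were higher and 7 lower, where 65 of all 9690 genes were higher and 7689 lower. Below the warm array by 2-fold or more were 8 with heparin (1.48% of all genes; median of the list -0.83) and 10 with PPS (1.71% of all genes; median -1.04), led by Ccl20, Cxcl10 and Cxcl1 with heparin and by Ccl20, Cxcl10 and Cxcl2 with PPS. Ccl20 stood at 8.69 on the warm and 4.95 on the heparin array and was below the floor on the PPS array (3.06), so it was 13.4-fold and at least 18.0-fold lower. Its heparin value lay near the floor too, so the 13.4-fold difference is uncertain in size. Cxcl2 was the only one of the 20 past the limit between the supplements as deposited (0.192% of all genes were higher). It was 4.65-fold higher with heparin (7.89) than with PPS (5.67). Scaled to the hybridisation controls, 4 of 19 were higher with heparin, where 142 of all 9478 genes were. The target, subunit and receptor lists were chosen with earlier results of these data known, so their counts are descriptions.

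**Figure D4:**
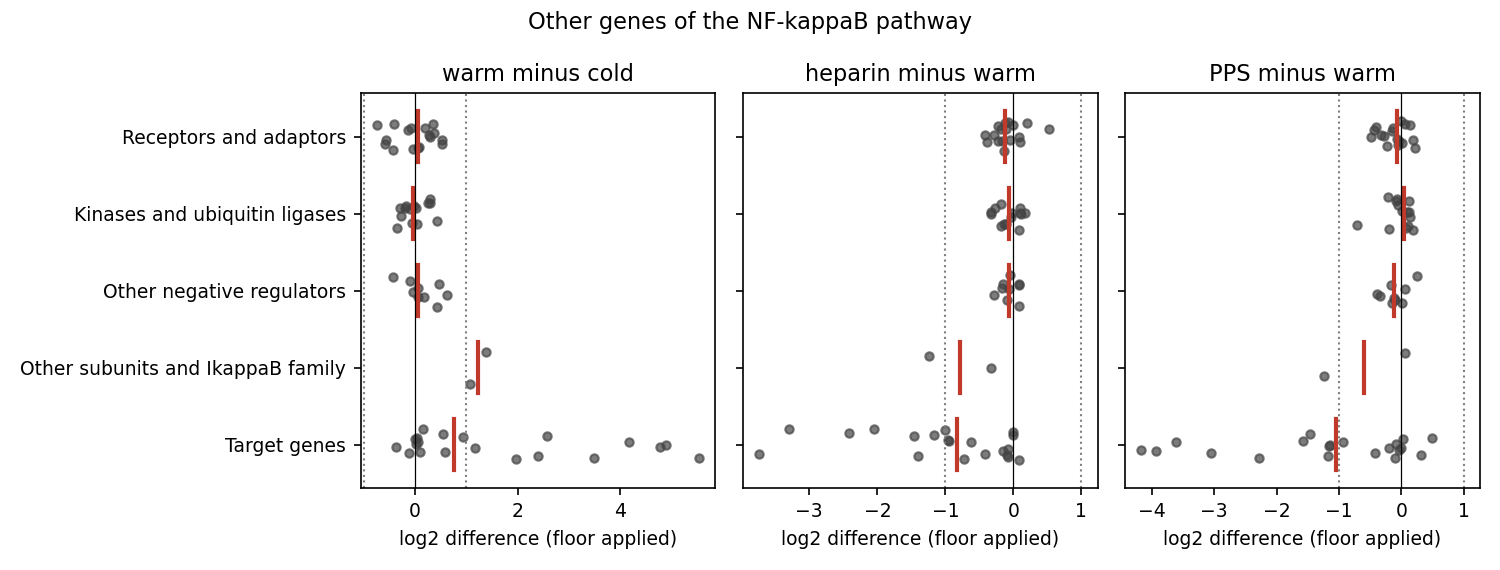
Log2 differences of the other NF-kappaB pathway genes above the floor, by list, in 3 comparisons; each point is 1 gene, red bars are list medians and dotted lines mark 2-fold. Values are as deposited. Receptors, kinases and other negative regulators stay inside 2-fold, while 9 of 20 target genes exceed it in warm minus cold. Scaling to poly-A controls shifts warm minus cold points by about -1.27 for genes that stay above the floor on both arrays. Genes at the floor on either array shift less, and the median of the target list goes from 0.76 (20 genes) to 0.62 (19 genes).

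**Figure D5:**
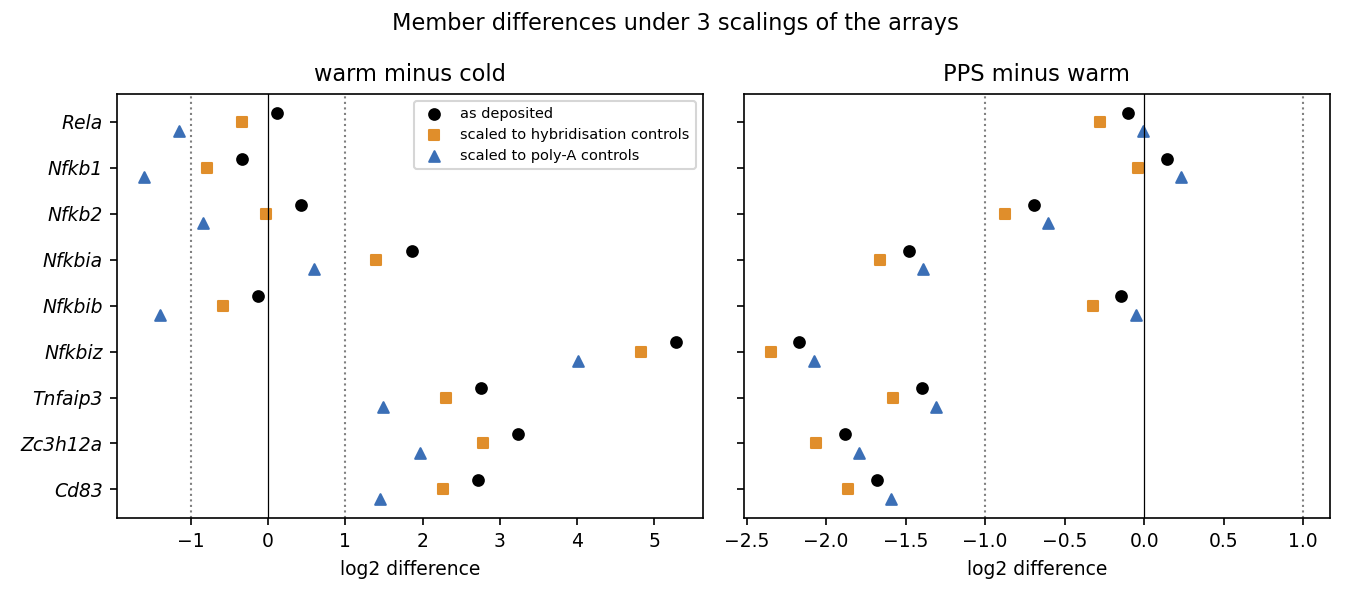
Log2 differences of the 9 members as deposited (black), scaled to hybridisation controls (orange) and scaled to poly-A controls (blue), for warm minus cold and PPS minus warm. In warm minus cold Nfkbiz, Tnfaip3, Zc3h12a and Cd83 stay past 2-fold under all 3, and Rela and Nfkb2 turn negative under both control scalings. With poly-A scaling Nfkbia drops to 0.59. Rela (-1.15), Nfkb1 (-1.61) and Nfkbib (-1.40) are then lower by 2-fold or more, where 7689 of all 9690 genes are. In PPS minus warm the 5 feedback genes stay past 2-fold under all 3.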

How the data were processed

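Messenger RNA was measured on 4 rat Affymetrix arrays, 1 per group, each with pooled RNA of 3 kidneys and 6 ug of total RNA in the labelling. The authors deposited log2 values per probe set. GCRMA is the tool that the submitters' processing notes list, without a version. That the scale is log2 was inferred from the range of 2.11 to 16.4. Between 27.0% and 27.2% of probe sets per array sit at the lowest value. GCRMA gives all arrays nearly the same distribution, which hides any change in total messenger RNA.

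Of 31099 probe sets, 57 are controls; 20832 of the 21268 annotated probe sets carry 1 symbol, updated through Entrez identifiers to RefSeq where found. For each gene the probe set with the highest mean was taken (14217 genes), values were raised to the 50th percentile (4.51), and the 9393 genes above it on at least 1 array were compared, 6 comparisons in all. The number of arrays limits the precision. The limma fit (limma 3.58.1 in R 4.3.3; lmFit and eBayes, Benjamini-Hochberg adjustment over 9393 genes) used values without the floor. All 10 members were named, with the genes past the limit among the 3 largest per direction in each list and the 3 nearest profiles of Nfkbia, Nfkbiz and Tnfaip3; genes at the extremes or of central role in lists with none past the limit were named after their values were seen. Members and lists were chosen with earlier results of these data known. Scripts were tested on simulated data. Promoter windows came from the RefSeq table. Alternatives changed the floor, scaling, probe set rule and size limit.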

Additional observations from a re-analysis of the deposited data

How the results depend on the processing

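Of 432 member differences under alternative settings, 386 kept their sign and their side of the size limit in use. That limit was 2-fold, or 1.5-fold in the setting of that name. Dropping or lowering the floor could change no member value, since all 9 lay above it on all 4 arrays. Averaging probe sets could change Nfkbiz only, and the 1.5-fold limit changes no value. With the hybridisation controls 16 of 54 did not keep both, and with the poly-A controls 21 of 54 did not and 2 reversed. In all, 44 did not keep both and 2 called ones reversed. The 2 were Cd83 against cold, at -0.26 with heparin and -0.14 with PPS after scaling to the poly-A controls. That scaling is by construction a shift of whole arrays. It gave 3 members lower in warm minus cold (Rela, Nfkb1 and Nfkbib; 65 genes higher and 7689 lower in all, against 233 and 109), 1 higher and 4 lower for heparin against cold (32 and 8358, against 110 and 86) and 1 higher and 4 lower for PPS against cold (23 and 7428, against 97 and 74). In heparin minus PPS it gave 10 and 49 genes (against 18 and 28). Scaled to the hybridisation controls, 1 member was higher in PPS minus cold and 2 in heparin minus PPS, with 116 genes higher and 429 lower for warm against cold, 72 and 134 for heparin against cold, 39 and 765 for PPS against cold, 86 and 85 in heparin minus warm (against 36 and 139) and 142 and 11 in heparin minus PPS. With a 1.5-fold limit, 5 members were lower in heparin minus warm and 2 higher in heparin minus PPS; all-gene counts, higher and lower, were 640 and 380 (warm minus cold), 345 and 280 (heparin minus cold), 327 and 301 (PPS minus cold), 159 and 367 (heparin minus warm), 167 and 350 (PPS minus warm, against 48 and 161) and 121 and 131 (heparin minus PPS), by construction larger. Averaging probe sets gave 23 higher genes in heparin minus warm, and no floor or a floor at the 25th percentile gave 28 higher in heparin minus PPS; the cause was not tested. The share of higher calls moved by over 10 percentage points with the hybridisation controls in 5 comparisons (68.1% to 21.3%, 56.1% to 34.95%, 56.7% to 4.85%, 20.6% to 50.3% and 39.1% to 92.8%, all but PPS minus warm). With the poly-A controls this share went to 0.838% (warm), 0.381% (heparin) and 0.309% (PPS) against cold. It went to 16.9% in heparin minus PPS. By limma, 0 members were called with trend and robust estimation, with the floor or without any 1 warm-perfused array, and the count of lower genes was 0 in each; scaled to the poly-A controls, 1 member was higher (Nfkbiz) and 4 lower, with 27 genes higher and 9035 lower. No paired analysis was possible because each group has 1 array. The groups' single arrays leave the spread between kidneys unmeasured.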
